A study of Mus musculus with 8 samples.

Results

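Cbr2, Scgb1a1, Sftpc, Sftpb, Sftpd and Sftpa1 are genes of the lung epithelium, and their transcripts were followed in hearts of newborn mice that lack connexin43 and of wildtype newborn mice. Members were probes whose single gene symbol is 1 of these 6 names, and a gene was used where at least 3 wildtype and 3 null arrays gave it a value. Of the 6 genes 4 had a probe and 3 met this limit, Cbr2, Scgb1a1 and Sftpc, among 7603 named genes of the series that met it. Both groups were neonatal C57BL mice, wildtype or connexin43 null in the words of the labels, which give no exact age, sex or construct of the null allele. Hearts were pooled by 3, and 4 pools of either genotype, labelled with Cy3, went on 1 array each, 8 arrays in all, against 1 Cy5-labelled reference made from adult tissues, lung and heart among them. The set was put together with earlier results of these data known, in which Cbr2 stood out by its lower value in null hearts. The difference between genotypes is therefore given for the members as a description, with its standard error (SE) and without a test.

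The conducting airways of the lung are lined by club cells and ciliated cells, and the alveoli by flat type 1 cells and by type 2 cells that secrete surfactant, the film of lipid and protein that keeps alveoli open. Scgb1a1 encodes the secretoglobin that club cells release into the airway fluid, and Sftpc encodes surfactant protein C, a product of alveolar type 2 cells used to define them. Cbr2 encodes a mitochondrial carbonyl reductase that is abundant in mouse lung and was also described in adipocytes. Sftpb encodes the other hydrophobic surfactant protein, and Sftpa1 and Sftpd encode collectins of the airspace. Neither surfactant proteins nor the club cell secretoglobin are known as products of heart muscle. The reference contained adult lung, so that each ratio sets newborn heart against a mixture with lung RNA, and ratios of different genes do not rank their levels.

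Of the 3 measured members, Cbr2 had an entry in the RefSeq promoter table of build GRCm38.p6, and Scgb1a1 and Sftpc were not matched. The 250 bases before its start are shown because Cbr2 carries the largest difference of the set. They lie at chr11:120732022-120732271 on the minus strand, and capitals mark matches on either strand to TGTTTNC, a core bound by FOXA factors, and to CCACCC, the CACCC box.
Cbr2: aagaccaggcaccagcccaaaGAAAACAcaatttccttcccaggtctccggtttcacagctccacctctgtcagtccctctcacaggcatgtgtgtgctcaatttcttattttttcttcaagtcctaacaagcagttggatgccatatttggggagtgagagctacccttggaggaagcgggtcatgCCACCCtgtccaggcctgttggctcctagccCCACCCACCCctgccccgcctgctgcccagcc
The FOXA core was matched 1 time, and 17.8% of 32851 promoter windows of this length hold it. CCACCC was matched 3 times, at 63, 32 and 28 bases before the start, and the last 2 matches overlap each other. At least 1 match to CCACCC stood in 28.1% of windows, and 3 or more in 1.78%. The letters CTCAAG, a core bound by the lung factor NKX2-1, were not found in this window and stood in 13.3% of all windows. They were found 2 times in the window of Sftpb and 1 time in that of Sftpa1.

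The unit throughout is the log2 ratio of heart to reference, from which the median of the array was subtracted. Of 28704 spots 45.2% to 83.4% had a value on an array, with the lowest share on wildtype replicate 1. The direction was taken from the data: the median of 9 sarcomere genes was 0.56 to 0.86 and that of the 7 to 9 genes of other adult tissues, lung left out, that had a value on the array was -2.59 to -1.64, with the first above the second on 8 of 8 arrays. Gja1, which encodes connexin43, read 1.04, 1.31, 0.99 and 0.79 in wildtype replicates 1 to 4 and -0.29, 0.25, 0.12 and 0.22 in null replicates 1 to 4. The null arrays were thus all lower for Gja1, as the labels have it, although its 1 probe may lie outside the deleted part. The difference was -0.95 (SE 0.15), or 1.94-fold lower. With a limma adjusted p of 0.34, Gja1 itself did not pass the test over all features.

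Cbr2 was the member with the largest difference between genotypes. Its log2 ratio was -1.0, -0.87, -1.51 and -1.84 in wildtype replicates 1 to 4, and -2.94, -2.86 and -2.30 in null replicates 1, 3 and 4. Null replicate 2 had no value at this spot, for a reason not given in the sources used here. The 2 genotypes did not overlap, with a gap of 0.46 between the highest null and the lowest wildtype array. The mean was -1.31 ± 0.45 (SD, n = 4) in wildtype and -2.70 ± 0.34 (SD, n = 3) in null hearts, a difference of -1.39 (SE 0.24), or 2.63-fold lower. The ratio of Cbr2 in wildtype hearts was 40.5% of the ratio of the median spot, and in null hearts 15.4%. Of the 11804 features of the series 1 had a lower difference. Cbr2 was chosen with this difference known, so nothing is read from its rank. In wildtype hearts 84 features had a lower mean ratio than Cbr2, and in null hearts 14.

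Scgb1a1 was near the bottom of the scale in both genotypes. Its log2 ratio was -2.30, -2.41, -2.58 and -2.88 in wildtype replicates 1 to 4 and -3.30, -2.98, -3.33 and -2.93 in null replicates 1 to 4. The groups did not overlap, but the lowest wildtype array and the highest null array were only 0.05 apart. The mean was -2.54 ± 0.25 in wildtype and -3.14 ± 0.21 in null hearts (SD, n = 4 each), a difference of -0.59 (SE 0.15), or 1.51-fold lower. In either genotype 5 features had a lower mean ratio than Scgb1a1.

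Sftpc read much like Scgb1a1. Its log2 ratio was -2.79, -2.26, -2.0 and -2.73 in wildtype replicates 1 to 4 and -2.89, -2.88, -3.34 and -3.21 in null replicates 1 to 4. Here too the groups did not overlap, with 0.09 between the nearest arrays. The mean was -2.45 ± 0.38 in wildtype and -3.08 ± 0.23 in null hearts (SD, n = 4 each), a difference of -0.63 (SE 0.19), or 1.55-fold lower. In null hearts 6 features had a lower mean ratio, and in wildtype hearts 10.

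**Figure D1:**
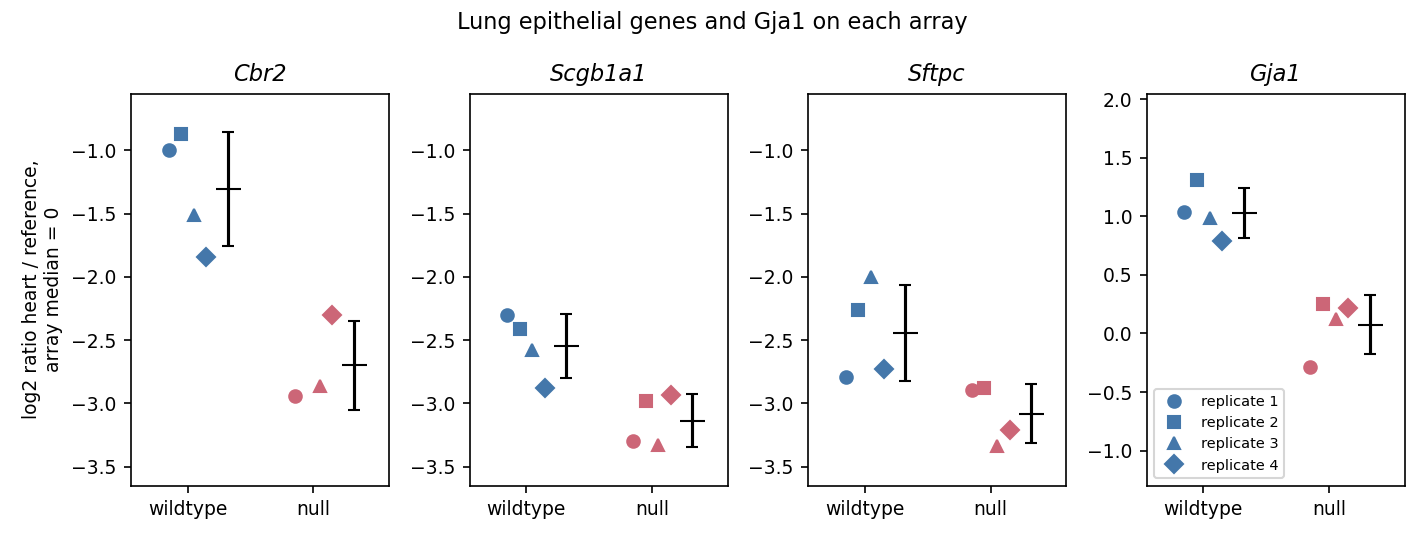
Log2 ratio of heart over reference on each array, with the array median at 0, for Cbr2, Scgb1a1, Sftpc and the label check Gja1. Symbols are arrays, their shapes name the replicate number, and the bars give mean and SD per genotype (n = 4, and 3 for Cbr2 in null hearts); in all 4 panels the null arrays lie below the wildtype arrays, by 0.05 for Scgb1a1, and the axis of Gja1 covers higher ratios.

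Every null array was below every wildtype array for 3 of the 3 measured members, and for 5.54% of all features. The members were chosen with this contrast known, so nothing is read from their count. With limma 0% of all 11804 features passed an adjusted p of 0.05, and 972 had an unadjusted p under 0.05. The smallest adjusted p of the limma fit was 0.34. The nearest arrays of Scgb1a1 and Sftpc were so close that the scaling decided their order. After centring within blocks of the print, the highest null value of Scgb1a1 was -2.91 and the lowest wildtype value -3.0. After quantile normalization the highest null value of Scgb1a1 was -2.77 and the lowest wildtype value -2.92, and the groups of Sftpc met at -2.79. The groups of Cbr2 stayed apart under these scalings, at -1.80 and -2.18 after quantile normalization.

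The limit on missing values left out Sftpb and admitted Cbr2. Sftpb had 2 probes, 1 without any value and 1 with a single value, -0.58 on wildtype replicate 4. Cbr2, at the limit, had 4 wildtype and 3 null values, and Scgb1a1 and Sftpc had values on all 8 arrays. Sftpa1 and Sftpd had no probe with their symbol and were not analysed here. Each of the 3 measured members had 1 probe, so that agreement between probes could not be examined.

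The 3 members did not all vary as one among arrays of a genotype, and Cbr2 and Scgb1a1 ran closer to each other than to Sftpc. In wildtype hearts Cbr2 spanned 0.97, Scgb1a1 0.58 and Sftpc 0.79. Wildtype replicate 1 had the highest value of Scgb1a1 and the lowest of Sftpc, and wildtype replicate 4 the lowest values of Cbr2 and Scgb1a1. Among null arrays, replicate 3 was lowest for both Scgb1a1 and Sftpc. The log2 ratio of Cbr2 to Scgb1a1 was 1.30, 1.54, 1.07 and 1.04 in wildtype replicates 1 to 4 and 0.36, 0.48 and 0.62 in null replicates 1, 3 and 4. Its SD in wildtype hearts, 0.23, was close to that of Scgb1a1 alone, 0.25, and below that of Cbr2, 0.45. In null hearts the SD was 0.13 (n = 3), against 0.21 for Scgb1a1 (n = 4) and 0.34 for Cbr2 (n = 3). The mean of this ratio was 0.49 ± 0.13 (SD, n = 3) in null and 1.24 ± 0.23 (SD, n = 4) in wildtype hearts. Cbr2 was chosen with its low null values known, so that its lower ratio to Scgb1a1 is no separate result. The ratio of Scgb1a1 to Sftpc differed by less than the spread between arrays, at -0.10 ± 0.44 in wildtype and -0.055 ± 0.29 in null hearts (SD, n = 4 each).

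Features with a low ratio, those of other tissues included, mostly had lower values in null hearts. Of the 26 features other than members whose mean log2 ratio was below -2, 26 were lower in null hearts, with a median difference of -0.40 and quartiles of -0.57 and -0.27. The genotypes were apart, with null lower, in 6 of them, or 23.1%, against 5.54% of all features. That share was 13.2% between -2 and -1, 7.58% from -1 to 0 and 3.22% at 0 and above. Of these 26 features 5 had a difference at least as low as that of Scgb1a1 and 4 at least as low as that of Sftpc, while 0 reached that of Cbr2. Between -2 and -1, where the mean of Cbr2 lies, 189 features had a median difference of -0.29, and 0 of them reached Cbr2. Cbr2 was chosen with its low null values known, so nothing is read from the counts set against it. Features from -1 to 0 had a median of -0.073, and those at 0 and above 0.0012. The 9 measured genes of other adult tissues, lung left out, were all lower in null hearts, with a median of -0.30, or -0.15 without null replicate 3 and -0.16 without wildtype replicate 2. Among them Tnp1, which encodes a chromatin protein of spermatids, had -0.33 (SE 0.13), but 0.0018 after quantile normalization. In either genotype 0 features had a lower mean ratio than Tnp1. Quantile normalization gives the lowest spots of each array the same values, so nothing is read from the value near 0. Fgb, which encodes a chain of fibrinogen made in liver, had -0.71 (SE 0.29), or -0.37 without null replicate 3 and -0.32 after quantile normalization. The part of this trend in the differences of Cbr2, Scgb1a1 and Sftpc was not tested.

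**Figure D2:**
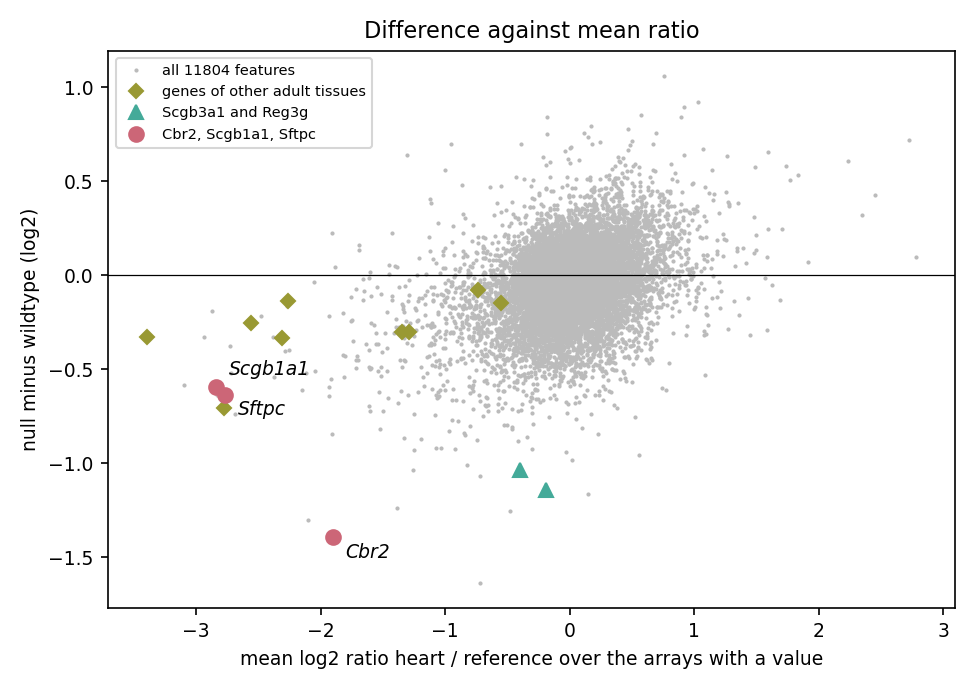
Difference between genotypes (null minus wildtype, log2) against the mean log2 ratio of heart over reference for all 11804 features, each a grey point. Circles are Cbr2, Scgb1a1 and Sftpc, triangles the airway genes Scgb3a1 and Reg3g, and diamonds 9 genes of other adult tissues; Scgb1a1 and Sftpc lie near the diamonds at the left, and Cbr2 lies lower, at -1.39.

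The next question was whether further genes of lung epithelium had lower values in null hearts. The 5 lists, for alveolar type 2, alveolar type 1, club and ciliated cells and for epithelium in general, held 57 genes other than the members, of which 30 had a probe and 17 were measured. Of the 17 genes 16 were lower in null hearts and 1 was higher, with a median difference of -0.22, against 59.1% lower and a median of -0.039 over all features. Of features with a mean log2 ratio between -2 and -1, members left out, 163 of 189 were lower, with a median of -0.29. From -1 to 0 it was 3828 of 5658, with a median of -0.073. Genes of other adult tissues, lung left out, were lower for 9 of 9, with a median of -0.30. The part of low ratios in the count of lung genes was not tested. In 2 of the 17 genes, Scgb3a1 and Slc34a2, null and wildtype arrays did not overlap, against 5.54% of all features with null lower, and 0 passed limma's test over all features. Levels were averaged over the 12 genes with a value on all 8 arrays, a choice made after the data were seen. Their mean was -0.65 to -0.37 on the wildtype arrays and -0.93 to -0.65 on the null arrays, and only 0.0054 lay between the groups. Without the 2 club cell genes, the other 10 had -0.79 to -0.48 on wildtype and -0.86 to -0.66 on null arrays, and the groups overlapped. In pools of whole hearts, fewer cells of a type and less RNA per cell cannot be told apart.

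The 2 measured genes of the club cell list had the largest differences. Scgb3a1, a secretoglobin of the airway surface, read 0.94, 0.38, -0.66 and -0.17 in wildtype replicates 1 to 4 and -0.88, -0.84, -1.19 and -0.75 in null replicates 1 to 4. Its groups did not overlap, and the difference was -1.04 (SE 0.28; limma adjusted p = 0.519). Reg3g, a secreted lectin that kills bacteria, read 1.19, 0.52, -0.49 and 0.30 in wildtype replicates 1 to 4 and -0.40, -0.87, -1.28 and -0.49 in null replicates 1 to 4. Wildtype replicate 3 lay below null replicate 1, so that its groups overlapped, and the difference was -1.14 (SE 0.31; limma adjusted p = 0.519). Both genes were highest on wildtype replicate 1, the array with the fewest values. Without that array their differences were -0.76 and -0.87. Only 9 features had a lower difference than Scgb3a1 and 6 a lower one than Reg3g.

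Alveolar type 2 genes were lower by little. The phosphate carrier gene Slc34a2 had -1.29, -1.27 and -1.27 in wildtype replicates 1, 2 and 4 and -1.71, -1.97 and -1.31 in null replicates 1, 3 and 4, a difference of -0.39 (SE 0.17; limma adjusted p = 0.594). The genotypes were apart by the small step from -1.29 to -1.31. The difference was -0.23 without null replicate 3. Lpcat1, which encodes an enzyme that makes the main lipid of surfactant, had -0.17 (SE 0.14), or -0.069 without wildtype replicate 1, the transcription factor gene Etv5 -0.14 (SE 0.11) and Abca3, which encodes the lipid pump of lamellar bodies, -0.051 (SE 0.11). These 3 genes overlapped between genotypes. All 5 measured genes of this list besides Sftpc were lower in null hearts, with a median of -0.14, or -0.081 without wildtype replicate 1 and -0.085 without wildtype replicate 3. With single arrays left out, Abca3 ranged from -0.13 to -0.0067.

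Of the type 1 and ciliated cell lists 2 genes each were measured. Cav1, which encodes caveolin-1 and is also a gene of endothelium, was the 1 gene of the 17 with a higher value in null hearts, 0.26 (SE 0.12; limma adjusted p = 0.594). Clic5, of the chloride intracellular channel family, had -0.34 (SE 0.31), which turned to 0.10 without wildtype replicate 1. The ciliated cell genes Tppp3 and Rsph1 had -0.22 (SE 0.16) and -0.16 (SE 0.26). Tppp3 came to -0.13 without wildtype replicate 2, and Rsph1 turned to 0.10 without null replicate 3.

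Genes that epithelia of many organs share were lower for 6 of 6, with a median of -0.33, or -0.19 without wildtype replicate 3. Cdh1, which encodes E-cadherin, read -1.68, -0.88, -0.53 and -1.61 in wildtype replicates 1 to 4 and -2.12, -2.52 and -1.33 in null replicates 2, 3 and 4. Its groups overlapped, and the difference was -0.82 (SE 0.33; limma adjusted p = 0.578). The tight junction gene Cldn7 had -0.58 (SE 0.26), or -0.35 without wildtype replicate 2, and the keratin gene Krt19 -0.36 (SE 0.19), or -0.18 without wildtype replicate 3. Spint2, which encodes a membrane protease inhibitor, had -0.30 (SE 0.17), or -0.19 without wildtype replicate 2. Each of these overlapped between genotypes.

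**Figure D3:**
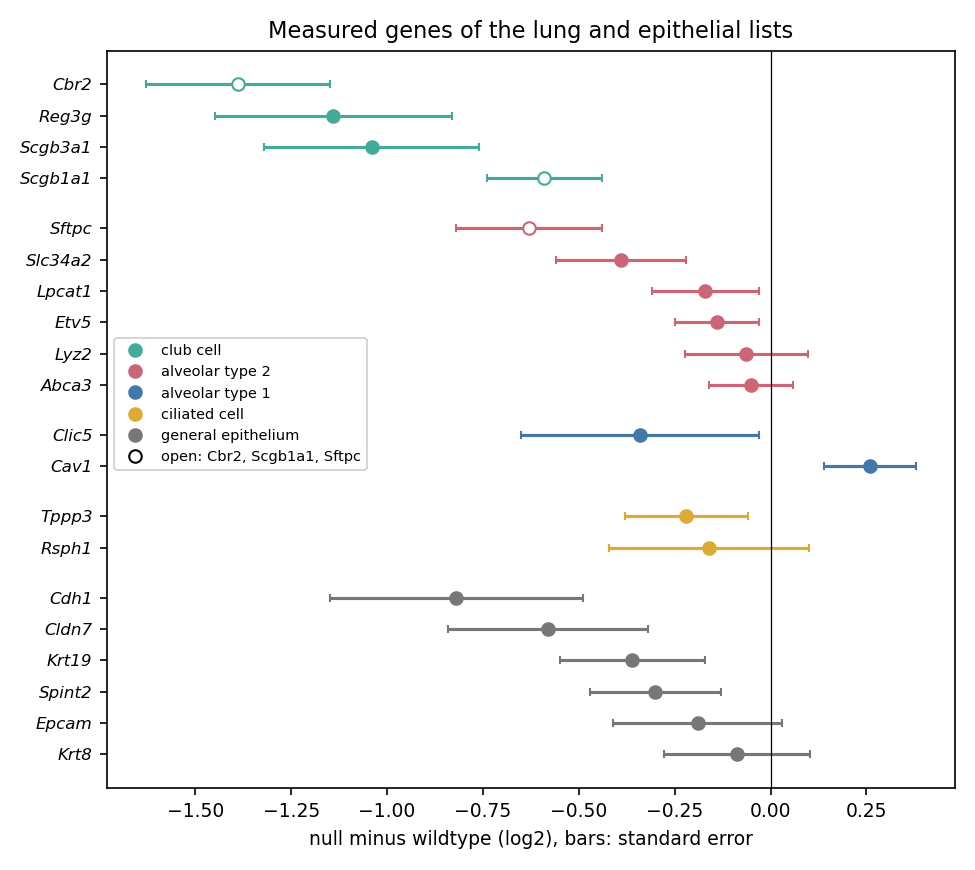
Difference between genotypes (null minus wildtype, log2) with its standard error for each measured gene of the lung and epithelial lists, grouped by list and coloured by it. Open circles are Cbr2, Scgb1a1 and Sftpc; points left of 0 are lower in null hearts, with club cell genes from -1.39 to -0.59 and Cav1 alone to the right.

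Missing values fell in the same direction. Among spots that failed the limit but had at least 1 value, 59.3% had more values in wildtype than in null hearts and 28.8% the reverse. Of 10 such spots of the lung and epithelial lists, Sftpb included, 9 had more wildtype values, and so did 4 of the 4 of the club cell list. Such spots of other adult tissues, lung left out, went the same way. Prm2 had 4 wildtype and 2 null values, Slc12a1 3 and 1, Cd79a 2 and 1, and Cyp11a1 4 and 1, or 2 and 0 on a further spot. Lung stroma and vessel spots were mixed. Tcf21 had 1 wildtype and 4 null values, Ednrb and Fgfr4 2 and 4 each, Fgf10 1 and 0, and Npnt 3 and 2, or 2 and 3 on a further spot. The genes named here were chosen after their values were seen. Cyp2f2, a cytochrome P450 of club cells, read -1.20, -1.24, -1.72 and -2.29 in wildtype replicates 1 to 4 and -2.65 and -3.11 in null replicates 2 and 3. Its 2 null values lay below its wildtype values. The same held for 2 genes of other adult tissues. The null values of Prm2, -3.36 and -3.68, lay below its lowest wildtype value, -3.13. The 1 null value of Cyp11a1, -2.27, lay below its lowest wildtype value, -1.47. Slc12a1 and Cd79a, of the same list, overlapped between genotypes. Cyp2b10, also of the club cell list, overlapped between genotypes. It read -0.77, -0.42, -0.14 and -0.85 in wildtype replicates 1 to 4 and -0.9 and -0.74 in null replicates 1 and 4. The secretoglobin gene Scgb3a2 had 4 wildtype values that spread from -2.46 to 1.19. Its 1 null value, -2.01, lay above wildtype replicate 3. The mucin gene Muc1 had 3 wildtype and 0 null values, and the ciliated cell gene Cfap126 had 4 and 0. The spot filter of the authors is not stated, and its part in these gaps was not tested.

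Relatives of Cbr2 were measured next, from a list that does not hold every relative. Of its 13 measured genes 8 were lower and 5 higher in null hearts, and 0 passed limma's test. The median of -0.038 turned to 0.0084 without wildtype replicate 3 and to 0.012 without null replicate 1. A wider choice by symbol family (Cbr, Dcxr, Dhrs, Akr1, Hsd11b, Hsd17b, Rdh and Pecr), added after the data were seen, held 24 measured genes. Of these 18 were lower and 6 higher, with a median of -0.18, against 59.1% lower and -0.039 over all features, and 0 passed limma's test. Dhrs3, a retinal reductase gene, had -0.26 (SE 0.14) and Hsd11b1, whose enzyme regenerates active glucocorticoid, -0.42 (SE 0.25), with -0.13 to -0.63 as single arrays were left out. The short-chain dehydrogenase genes Dhrs1 and Dhrs7 had -0.35 (SE 0.21) and -0.19 (SE 0.13), or -0.14 and -0.11 without wildtype replicate 2. Each of these 4 genes overlapped between genotypes. Cbr1, which encodes the widely expressed carbonyl reductase and is named outside the rule for named genes, had -0.063 (SE 0.16). Its values were -0.72, -0.40, -0.31 and -0.67 in wildtype and -0.21, -0.61, -0.97 and -0.56 in null replicates 1 to 4.

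Genes next to the members on their chromosomes had small differences where they were measured. Bmp1 beside Sftpc on chromosome 14 had 0.03 (SE 0.10) and Asrgl1 beside Scgb1a1 on chromosome 19 had -0.21 (SE 0.12). Dcxr, the neighbour of Cbr2 on chromosome 11 and itself a carbonyl reductase gene, missed the limit on missing values.

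Tissues that lie against the heart or are rich in Cbr2 were followed by their own markers. Adipocyte genes were lower for 5 of 7, with a median of -0.16, or -0.039 without wildtype replicate 3, and 0 passed limma's test. Pparg, which encodes the master regulator of fat cells, had 0.28, -0.44, 0.29 and -0.49 in wildtype replicates 1 to 4 and -0.50, -1.04, -0.49 and -0.49 in null replicates 1 to 4. Its difference was -0.54 (SE 0.21; limma adjusted p = 0.568), and its groups touched at -0.49. Ucp1, which defines brown fat, had a higher value in null hearts, 0.33 (SE 0.20), or 0.15 without wildtype replicate 1. Dgat2, a gene of triglyceride synthesis, had -0.29 (SE 0.20), or -0.07 without wildtype replicate 3. The insulin-regulated glucose transporter gene Slc2a4 had -0.16 (SE 0.12), or -0.073 without wildtype replicate 1. Averaged over the 6 genes with a value on all 8 arrays, the level was -0.34 to 0.20 on wildtype and -0.29 to -0.19 on null arrays, so that the groups overlapped.

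Lung tissue other than epithelium did not move one way. Of 4 measured genes of lung stroma and vessels 2 were lower and 2 higher. Car4, a carbonic anhydrase gene of lung capillaries that heart vessels also express, had 0.43, -0.85 and -0.97 in wildtype replicates 1, 2 and 4 and -1.49, -1.53 and -1.14 in null replicates 1, 3 and 4. Its groups did not overlap, and the difference was -0.92 (SE 0.33; limma adjusted p = 0.564), or -0.48 without wildtype replicate 1. Mfap4, a microfibril gene, had 0.42 (SE 0.14), the transcription factor gene Tbx5, shared by lung and heart, 0.18 (SE 0.13) and Foxf1, of lung mesenchyme, -0.10 (SE 0.16), or 0.015 without null replicate 3. Of mesothelium 2 genes were measured, Krt19, given above, and Msln at 0.034 (SE 0.19). Of 14 thymocyte genes 1 had a probe and 0 were measured. The sarcomere genes, as the tissue of interest, were lower for 4 and higher for 5 of 9, with a median of 0.014. This median ranged from -0.042 to 0.13 as single arrays were left out and was -0.14 without centring, so that its sign was not stable.

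Whether lung cells were part of the pools, and in which, is not stated in the labels. Beside the members, the markers of these cells, members left out, gave the following mean levels, over the genes with a value on all 8 arrays. The 2 club cell genes had -0.57 to 1.07 in wildtype and -1.23 to -0.62 in null hearts, with 0.047 between the groups. The other lists all overlapped. The 4 alveolar type 2 genes had -0.69 to -0.50 in wildtype and -0.77 to -0.57 in null hearts, and the type 1 gene Cav1 had 0.38 to 0.78 and 0.72 to 0.90. The 2 ciliated cell genes had -1.33 to -0.66 and -1.62 to -0.79, and 3 genes of general epithelium -1.18 to -0.59 and -1.31 to -1.01. The part of other cells in the differences of Cbr2, Scgb1a1 and Sftpc was not tested.

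Finally, the named genes with the most similar course over the arrays were listed for each member. Likeness was the root mean square difference between deviations from each gene's own mean, in log2 units. For Cbr2, over the 7 arrays with a value and 5760 genes, the nearest was Gja1 at 0.29, against a deviation of 0.77 for Cbr2. It was followed by Trf, which encodes transferrin, at 0.33, the transcription factor gene Klf5 at 0.36, and Kcnip3 and Zcchc12 at 0.38 each. The measure spans both genotypes without scaling, and Cbr2 was chosen for its low null values, so that closeness to it restates a large difference between genotypes and is no separate result. These 5 genes had differences of -1.01 to -0.78. For Scgb1a1, over 8 arrays and 5676 genes, Wwc1, a gene of the Hippo pathway, came first at 0.089 against a deviation of 0.36, before Mllt11 and Nbl1 at 0.13 and Ntm and the cDNA 6330564D18Rik at 0.14. For Sftpc the order was Mup9, of the major urinary proteins of liver, and Stmn3 at 0.19, Bop1 at 0.20 and Krt19 and B230343A10Rik at 0.21, against a deviation of 0.42. No gene stood in more than 1 of these 3 groups. Nothing is read from this, since the measure is not scaled and the deviation of Cbr2 is larger than those of Scgb1a1 and Sftpc.

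**Figure D4:**
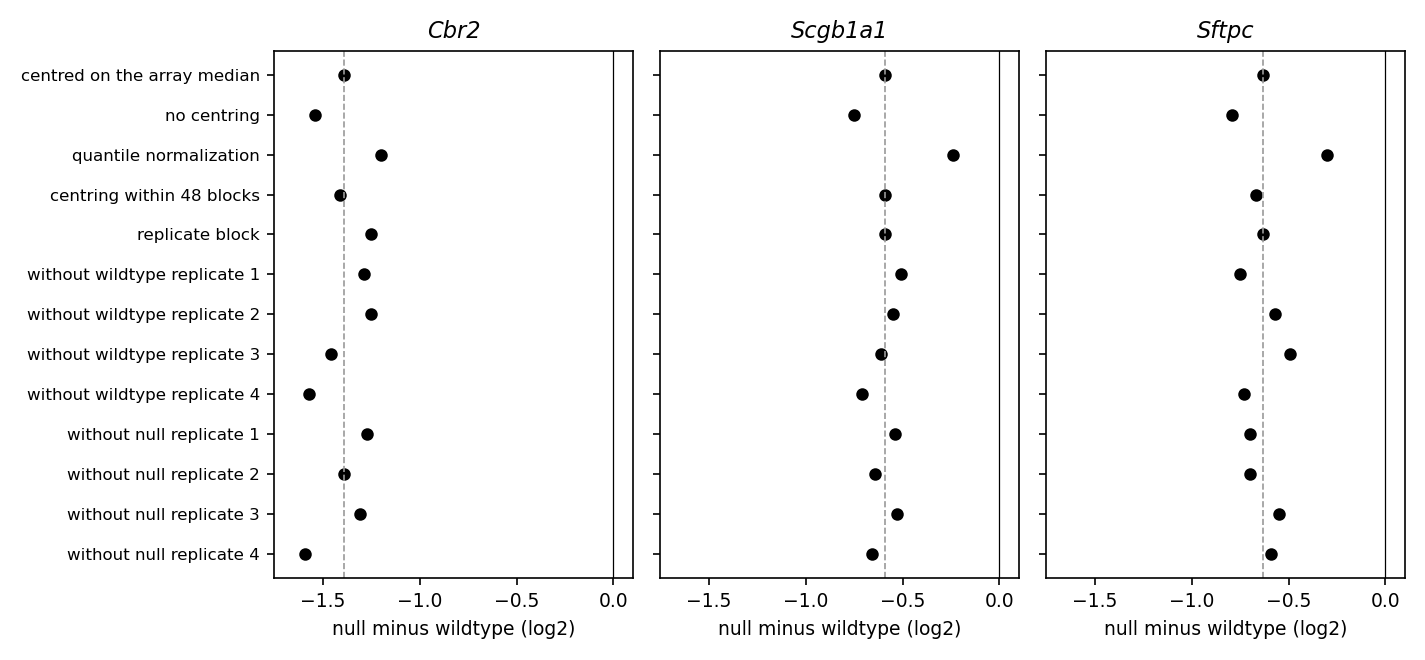
Difference between genotypes (null minus wildtype, log2) of Cbr2, Scgb1a1 and Sftpc under each scaling, with the replicate number as a block and with each array left out in turn. The dashed line marks the value as reported; Cbr2 lies between -1.59 and -1.20, and Scgb1a1 and Sftpc come nearest to 0 after quantile normalization, at -0.24 and -0.30.

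Without centring the differences were -1.54 for Cbr2, -0.75 for Scgb1a1 and -0.79 for Sftpc, against -0.18 for the median of all features. Quantile normalization, which gives the lowest spots of each array the same values, reduced those of Scgb1a1 and Sftpc to -0.24 and -0.30 and left Cbr2 at -1.20.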

How the data were processed

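Per the labels, hearts were pooled by 3 and hybridised with Cy3 against a Cy5-labelled reference. The deposited values are log ratios per spot; scanning, background correction, filters and scaling by the authors are not stated in the labels. Base 2 was inferred: of 31304440 differences between deposited log2 values inside blocks of 598 rows, 8347 matched, to 1.5e-09, logs of fractions whose terms do not exceed 120, while base e gave 269 matches and base 10 gave 863. Genes come from the platform annotation, in which 18511 probes have 1 symbol, 937 several and 9256 none. Arrays were centred on their medians. For genes with several probes, array effects were estimated beside probe effects, and 11804 features with values on at least 3 arrays per genotype were fitted with lmFit and eBayes in limma 3.58.1 (R 4.3.3), with Benjamini-Hochberg adjustment at 0.05. Figures used matplotlib 3.10.9. The fit was tested on simulated data.

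Members and lists were chosen with earlier results of these data known. Named were the members, Gja1, up to 4 genes per list by p-value, and the 5 nearest profiles per member. Alternatives were other scalings, stricter limits on missing values, single probes, robust eBayes, the replicate number as a block and each array left out. The labels describe replicates as pools, so a p-value reflects how pools vary. The number of arrays limits the precision.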

Additional observations from a re-analysis of the deposited data

Results flagged for a closer look

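Of 63 groups of 4 arrays examined for the named genes, 7 held an array whose gap to the next exceeded 0.829 of the group's range, where chance gives about 1 in 20. None of them was a group of Cbr2, Scgb1a1 or Sftpc, and the null group of Cbr2, with 3 values, was not examined. In null hearts Cav1 read 0.72 on replicate 3 against 0.89 to 0.90 on the other arrays, Pparg -1.04 on replicate 2 against -0.50 to -0.49, and Msln 0.34 on replicate 1 against 0.62 to 0.66. Dhrs1 read 0.23 on wildtype replicate 2 against -0.67 to -0.53, and -1.21 on null replicate 1 against -0.63 to -0.55. In wildtype hearts Mfap4 read -0.34 on replicate 1 against -0.031 to -0.0052, and Foxf1 -0.22 on replicate 2 against -0.54 to -0.51.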

How the results depend on the processing

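Cbr2, Scgb1a1 and Sftpc were lower in null hearts under every alternative run. Leaving out single arrays gave -1.59 to -1.25 for Cbr2, -0.71 to -0.51 for Scgb1a1 and -0.75 to -0.49 for Sftpc. After quantile normalization the differences were -0.24 for Scgb1a1 and -0.30 for Sftpc, with null levels of -2.88 and -2.83. This step gives the lowest spots of every array like values, and its part in the smaller differences was not tested. Without centring the null levels were -3.37 and -3.32. With the replicate block the differences were -1.25, -0.59 and -0.63, and 0 features were called with limma, with 728 at an unadjusted p under 0.05. Same-numbered arrays had correlations of -0.25 to -0.01 in their deviations from the genotype means. The labels do not say whether the numbers pair the pools. The lack of a positive correlation cannot exclude a pairing with little effect on the values. The count of called features was 0 under every alternative in which calls were counted, and 0 to 0 with single arrays left out. Calls after centring within blocks of the print were not counted. At an unadjusted limma p under 0.05 the count was 614 of the 8078 features with all values, 1392 without centring and 688 to 1025 without single arrays. Signs turned for Msln without centring (-0.029), with quantile normalization (-0.019) and without wildtype replicate 3 (range over arrays -0.22 to 0.17). They turned for Actn2 without centring (-0.031) and without null replicate 4 (range -0.013 to 0.19), and for Csrp3 without centring (-0.016). Clic5 turned without wildtype replicate 1 (range -0.59 to 0.10). Rsph1 (range -0.37 to 0.10) and Foxf1 (range -0.22 to 0.015) turned without null replicate 3. The cause of these turns was not tested. The sign of Tnp1 also turned with quantile normalization (0.0018), a step that gives the lowest spots of each array the same values. Signal over background is not known here, so the depth of low spots could not be judged.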
